A study of Mus musculus with 56 samples.

Results

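The interferon-induced GTPases described here are 10 genes: the guanylate-binding proteins Gbp2, Gbp3, Gbp4, Gbp5, Gbp6 and Gbp7, and the immunity-related GTPases Igtp, Irgm1, Irgm2 and Iigp1. They were taken by gene symbol from 24633 symbols in a pair of count tables of mouse CD4 T cells, and genes with fewer than 10 counts in a table were left out of it. All 10 were measured in experiment 1, with 208 counts over all libraries for Gbp6 up to 20439 for Igtp. In experiment 2, 9 were measured, with 226 counts for Iigp1 up to 11385 for Igtp. Gbp6 had 0 counts in all 38 libraries there. For counting error alone, this allows up to 0.0487 CPM (counts per 1000000 counts of a library) over those libraries. Gbp10, which shares sequence with the end of the Gbp6 transcript, also had 0 counts there. Whether reads of Gbp6 were lost in counting was not tested, so the 0 sets no upper level for its transcript.

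The cells came from the spleen of C57BL/6 mice and were activated with beads coated with anti-CD3 and anti-CD28, and no cytokine was added to the culture. The series asks how the concentration of T cells in culture relates to early memory differentiation. Experiment 2 holds cultures begun at 1000000 cells per ml (high) or 62500 cells per ml (low), sorted on CD4 at 18, 30, 48 and 72 h, cells started at 250000 per ml and sorted as CD44 positive and either CD62L positive or CD62L negative at 48 and 72 h, and naive cells (CD44 negative, CD62L positive). Experiment 1 holds cells of the same starting concentration sorted as CD62L positive or CD62L negative at 48 and 72 h, mature cells (CD44 positive, CD62L negative) and naive cells, the last 2 groups without activation and by magnetic enrichment rather than sorting. There were 3 libraries in every group but that of the low concentration at 72 h, which had 2.

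Both families are large GTP-hydrolysing proteins of cell-autonomous defence, known above all from macrophages and fibroblasts infected with intracellular bacteria or Toxoplasma. Interferons induce them: interferon gamma acts through promoter elements called GAS, and type I interferons through interferon-stimulated response elements (ISRE), which IRF1 also binds. Guanylate-binding proteins coat vacuoles that hold pathogens and promote inflammasome activation, which is best known for Gbp2 and Gbp5. Among the immunity-related GTPases, Iigp1 is an effector that loads onto the vacuole, while Igtp, Irgm1 and Irgm2 are regulators that keep effectors off the cell's own membranes. In CD4 T cells, Irgm1 is known to protect against death driven by interferon gamma.

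Gbp2, Gbp3, Gbp5 and Gbp7 lie on mouse chromosome 3, Gbp4 and Gbp6 on chromosome 5, and Igtp, Irgm1 and Irgm2 on chromosome 11. The promoters of 6 members are shown because they differ in their GAS matches, while all of these genes but Gbp5 were lower together at 18 h. In all, windows of 7 members were used, from RefSeq (GRCm38.p6, a later build than the mm9 of the counts). Each window runs from 250 bases before the start site to 50 after it. Capitals mark the ISRE letters, 2 copies of GAAA with any 2 bases between them (TTTC on the other strand), and the GAS letters TTCNNNGAA, which read the same on both strands and overlap no ISRE match here. Igtp and Irgm2 are neighbouring genes whose windows hold a GAS match followed after 2 bases by an ISRE match, at chr11:58199306-58199605 and chr11:58214727-58215026, both on the plus strand.
Igtp: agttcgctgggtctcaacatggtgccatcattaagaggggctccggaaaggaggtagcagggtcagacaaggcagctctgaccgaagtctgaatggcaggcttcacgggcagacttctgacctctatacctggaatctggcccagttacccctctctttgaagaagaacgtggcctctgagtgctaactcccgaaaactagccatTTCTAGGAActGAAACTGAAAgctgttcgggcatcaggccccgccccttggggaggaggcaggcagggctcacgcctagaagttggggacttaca
Irgm2: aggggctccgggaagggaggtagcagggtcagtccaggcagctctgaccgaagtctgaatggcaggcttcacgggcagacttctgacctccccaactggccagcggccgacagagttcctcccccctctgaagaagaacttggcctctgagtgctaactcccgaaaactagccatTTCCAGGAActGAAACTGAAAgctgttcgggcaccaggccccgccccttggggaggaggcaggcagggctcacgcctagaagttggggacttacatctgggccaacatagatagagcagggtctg
Gbp5 (chr3:142496684-142496983, plus strand) and Gbp7 (chr3:142530086-142530385, plus strand) hold 2 GAS matches and 1 ISRE match each.
Gbp5: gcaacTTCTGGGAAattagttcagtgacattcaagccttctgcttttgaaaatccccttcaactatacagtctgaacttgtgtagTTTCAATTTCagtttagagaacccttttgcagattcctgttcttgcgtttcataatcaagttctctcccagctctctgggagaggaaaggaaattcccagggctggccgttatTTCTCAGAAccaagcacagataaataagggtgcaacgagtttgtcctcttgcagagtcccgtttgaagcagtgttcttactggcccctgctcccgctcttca
Gbp7: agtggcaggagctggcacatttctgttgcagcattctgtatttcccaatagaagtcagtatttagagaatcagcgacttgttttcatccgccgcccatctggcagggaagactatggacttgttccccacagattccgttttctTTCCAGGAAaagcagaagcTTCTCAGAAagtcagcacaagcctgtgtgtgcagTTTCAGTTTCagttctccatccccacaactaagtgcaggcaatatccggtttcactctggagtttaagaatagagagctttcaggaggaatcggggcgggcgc
Gbp2 (chr3:142620413-142620712, plus strand) holds 1 ISRE match, and Irgm1 (chr11:48871371-48871670, minus strand) 2 overlapping ones, without a GAS match.
Gbp2: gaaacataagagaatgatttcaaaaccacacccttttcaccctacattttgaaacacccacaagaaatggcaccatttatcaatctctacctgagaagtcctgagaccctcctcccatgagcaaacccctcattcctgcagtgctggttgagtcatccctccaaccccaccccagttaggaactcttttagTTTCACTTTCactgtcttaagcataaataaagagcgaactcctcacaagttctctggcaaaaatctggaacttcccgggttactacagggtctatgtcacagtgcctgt
Irgm1: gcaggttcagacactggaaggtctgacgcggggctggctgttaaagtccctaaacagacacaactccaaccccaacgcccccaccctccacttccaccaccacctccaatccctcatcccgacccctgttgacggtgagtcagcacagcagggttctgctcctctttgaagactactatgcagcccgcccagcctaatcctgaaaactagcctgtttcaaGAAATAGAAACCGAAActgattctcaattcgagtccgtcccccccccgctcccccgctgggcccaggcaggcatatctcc
The 7 genes have 8 windows, since Gbp3 has 2, of which the second holds no match. No window was found for Gbp4 and Gbp6, and Iigp1 was left out of the search. The counts of matches below therefore cover these 7 genes and not the whole family. An ISRE match was present in 7 of the 8 windows, 1 for each gene, and in 3.44% of all 32851 mouse windows of 300 bases. A GAS match was present in 4 of the 8 windows, against 8.3% of all windows, and both motifs in 4 of the 8, against 0.454%. A match of letters is a description and does not show that a factor binds there.

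The libraries held 58750 to 1738555 counts in experiment 1 and 587118 to 3359875 in experiment 2, and the members took 68 to 5032 and 33 to 1119 counts per library. Levels are given as CPM after TMM scaling within a table, and the tables were never joined, since ribosomal protein genes took 0.646 to 1.18% of counts in experiment 1 and 21.1 to 37.8% in experiment 2. All 7 CD4 T-cell markers found in the tables had counts in every group. In experiment 1 the enriched groups held more counts of markers of other cells. The summed level of 8 B-cell markers was 6.09 to 23.6 CPM in activated sorted libraries, against 600 to 661 CPM in mature and 900 to 1610 CPM in naive ones, where 7 of the 8 had counts and the defining marker Pax5 was at 0. That of 10 myeloid markers was 12.4 to 66.9 CPM in activated, 300 to 308 CPM in mature and 621 to 1485 CPM in naive libraries, with counts for 9 of the 10 in mature and all 10 in naive cells. CD8 and NK cell markers summed to 47.5 to 77.6 CPM in activated, 449 to 493 CPM in mature and 202 to 504 CPM in naive libraries, and red cell and platelet markers to at most 55.8 CPM in activated, 60.4 CPM in mature and 180 to 450 CPM in naive ones. In experiment 2 the B-cell and myeloid sums stayed at or under 14.9 CPM for B cells and 39.2 CPM for myeloid cells in all libraries, naive ones included. The counting is uncertain for Gbp6, since 77.8% of the 50-base words in the last 500 bases of its transcript also occur in Gbp10, Gbp9 or Gm43302, and for members that overlap another gene on the same strand in the GENCODE annotation: Igtp and Irgm2 each other, Gbp4 the genes Gbp8 and Gbp9, Gbp6 Gm43302, and Gbp7 a pseudogene. The labels do not say whether libraries of a group came from separate mice or cultures, so p-values measure the spread between these libraries only.

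The first question was what activation did to the family. In experiment 2, at 18 h after activation, 8 of the 9 measured GTPases were lower than in naive cells and none was higher, against 33.6% of all genes tested that were lower (edgeR's quasi-likelihood test, Benjamini-Hochberg adjusted p under 0.05, 9239 genes). The median log2 difference of the 9 was -2.78, and that of all genes 0.00. Igtp, the endoplasmic reticulum regulator of the family, had 50.3, 55.2 and 47.6 CPM at the high and 23.4, 20.6 and 19.6 CPM at the low concentration at 18 h, against 218, 211 and 259 CPM in naive cells. No library at 18 h came near the naive range, and the log2 difference was -2.78 ± 0.14 (SE, adjusted p = 1.15e-23). CPM are shares of the counts of a library and do not give transcripts per cell. Whether fewer cells held a transcript, each cell held less of it, or its share fell as other RNA rose cannot be told apart in these bulk libraries.

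The guanylate-binding proteins fell as a group, with Gbp5 as the exception. Gbp2 averaged 10.1 CPM at 18 h and 63.5 CPM in naive cells, a log2 difference of -2.67 ± 0.26 (adjusted p = 7.77e-13). Gbp4 averaged 3.41 and 38.5 CPM (-3.69 ± 0.41, adjusted p = 1.08e-10), and Gbp7, linked to autophagy and oxidant defence, 1.73 and 19.5 CPM (-3.47 ± 0.50, adjusted p = 2.8e-08). For these genes every library at 18 h lay below every naive library. Gbp5, the inflammasome promoter, had 3.73, 2.24 and 10.1 CPM at the high and 7.3, 2.43 and 5.35 CPM at the low concentration, against 2.31, 11.8 and 5.31 CPM in naive cells. Its groups overlapped and its difference of -0.33 ± 0.52 did not pass (adjusted p = 0.599). Gbp3 fell by 1.39 ± 0.45 on the log2 scale (adjusted p = 0.00648), but its naive libraries held 4.63, 4.35 and 18.1 CPM, and without the third of them its difference was -0.32 (adjusted p = 0.63).

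All 4 immunity-related GTPases fell. Irgm1 had 21.4, 26.1 and 21.1 CPM at the high and 16.8, 9.7 and 7.13 CPM at the low concentration, against 103, 85.8 and 88.2 CPM in naive cells, and Irgm2 averaged 4.84 CPM at 18 h and 34.2 CPM in naive cells (log2 -2.45 ± 0.22 and -2.90 ± 0.29, adjusted p = 3.88e-14 and 1.13e-12). Iigp1, the effector, was almost lost: 3 counts remained over the 6 libraries at 18 h, against 53 counts in the 3 naive libraries, a ratio of 0.0433 with an exact 95% interval for counting error of 0.00865 to 0.134. It had 0 counts in all 3 low libraries.

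**Figure D1:**
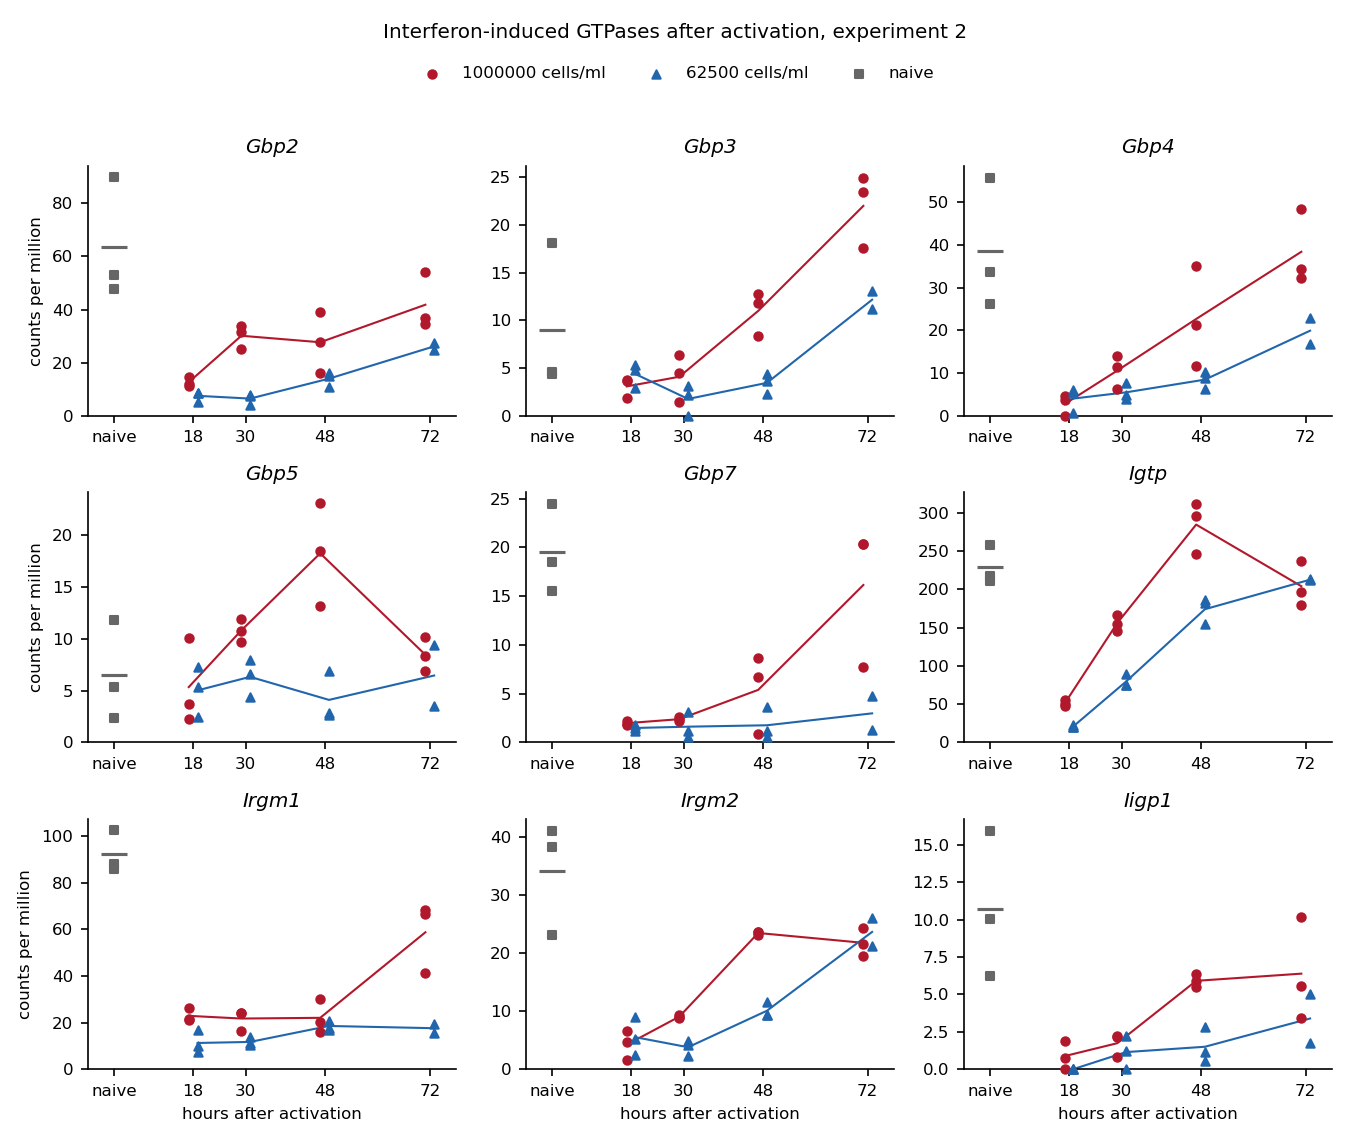
CPM (y axis, starting at 0) of 9 GTPases in each library of experiment 2 against hours after activation, with naive cells at the left; circles are the high and triangles the low concentration, lines join group means and short bars give the naive mean. Igtp lies at 47.6 to 55.2 CPM at the high and 19.6 to 23.4 CPM at the low concentration at 18 h, below the naive range of 211 to 259 CPM.

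The rest of the interferon pathway was followed in lists of genes with known roles. At 18 h, 4 of 4 measured receptor subunits were lower than in naive cells, among them Ifnar1 (8.46 against 51.9 CPM, log2 -2.66 ± 0.28, adjusted p = 5.87e-12) and Ifngr1 (8.69 against 32.3 CPM, -1.91 ± 0.25, adjusted p = 3.39e-09). Of 8 signal transducers, 6 fell and 2 rose: Irf1, an activator of these GTPases, averaged 22.2 CPM at 18 h and 228 CPM in naive cells (-3.39 ± 0.19, adjusted p = 9.32e-22), while Irf8, a factor of the same family, averaged 80.3 and 1.86 CPM (5.14 ± 0.34, adjusted p = 1.26e-18). Of 14 measured type I interferon genes, 13 fell and none rose (median -4.20), with Zbp1, Irf7 and Rtp4 having the smallest adjusted p. Of 15 genes of the interferon gamma list, 12 fell and 2 rose (median -1.88), and of 6 other interferon-inducible GTPases all 6 fell (median -4.24). Among the feedback inhibitors Socs3 fell by 4.61 ± 0.26 and Usp18 by 4.04 ± 0.47 on the log2 scale (adjusted p = 3.35e-21 and 1.46e-10), and Socs1 differed by -0.32 ± 0.18 without passing (adjusted p = 0.128). The ligands Ifnb1 and Ifna4 had 0 counts in all libraries of both tables, and Ifng had at most 2 counts in any group of experiment 2.

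The second question was whether the levels came back with time. At the high concentration, 8 of 9 GTPases were higher at 72 h than at 18 h, against 28.9% of all genes (median log2 difference 2.41, 0.06 over all genes), and at the low concentration 6 of 9, against 24.7% (median 1.71, or 1.62 with Iigp1 at its ratio over the floor given below, 0.03 over all genes). These comparisons share the 18 h libraries with the one above. Gbp4 averaged 38.4 CPM at 72 h and 2.77 CPM at 18 h at the high concentration, a log2 difference of 3.86 ± 0.53 (adjusted p = 3.4e-08), and 19.9 and 4.05 CPM at the low one (2.55 ± 0.61, adjusted p = 0.000617). Irgm2 rose by 2.41 ± 0.39 and 2.19 ± 0.41 (adjusted p = 6.27e-07 and 1.46e-05), and Gbp2 by 1.73 ± 0.32 and 1.71 ± 0.41 (adjusted p = 1.06e-05 and 0.000525), at the high and low concentration. Iigp1 had 23 counts at 72 h and 3 at 18 h at the high concentration, a ratio of 7.63 (exact 95% interval 2.31 to 39.7, counting error only), and 11 and 0 counts at the low one. Over a floor of 3 counts for the 18 h group, the 11 counts are 3.07-fold higher. This ratio leaves out the counting error of the 11 counts and is not a lower limit.

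Irgm1 and Gbp7 passed at the high concentration and not at the low one. Irgm1 had 66.5, 41.3 and 68.4 CPM at 72 h and 21.4, 26.1 and 21.1 CPM at 18 h at the high concentration (log2 1.35 ± 0.26, adjusted p = 2.37e-05), but 15.6 and 19.5 CPM against 16.8, 9.7 and 7.13 CPM at the low one (0.51 ± 0.37, adjusted p = 0.261). Gbp7 rose by 2.97 ± 0.62 at the high concentration (adjusted p = 5.68e-05) and differed by 1.02 ± 0.94 at the low one (adjusted p = 0.395). The difference between the 2 changes was tested directly and did not pass for either gene (0.84 ± 0.46, adjusted p = 0.219 for Irgm1, and 1.95 ± 1.27, adjusted p = 0.32 for Gbp7). Gbp5 passed at neither concentration. Calls that ended when 1 library was left out were those of Iigp1 at the high concentration (adjusted p = 0.0537 without 72 h library 1), of Iigp1 at the low one (0.0553 without 18 h library 1, 0.1 without 72 h library 1) and of Gbp3 there (0.144 without 18 h library 1, 0.11 and 0.0562 without either 72 h library, and 0.088 with the second title number as a factor). That number, of unstated meaning, is 1 in all 18 h and 2 in both low 72 h libraries, so that the rise at the low concentration runs along it.

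Only Igtp passed the test of a different change between the concentrations. This is 1 of 9 members, a share near the 9.22% of all genes that passed in this direction. At the high concentration Igtp had 179, 237 and 197 CPM at 72 h and 50.3, 55.2 and 47.6 CPM at 18 h, a rise of 1.99 ± 0.16 on the log2 scale (adjusted p = 3.72e-15). At the low concentration it had 214 and 212 CPM at 72 h and 23.4, 20.6 and 19.6 CPM at 18 h, a rise of 3.30 ± 0.20 (adjusted p = 1.49e-19). The high change minus the low change was -1.30 ± 0.26 (adjusted p = 0.00026). With the second title number as a factor it was -1.51 (adjusted p = 6.58e-05). Among the groups of this test, that number sets the low 72 h libraries alone apart. Its effect was therefore estimated from other groups, and this fit cannot separate the number from the change. The groups stood apart at 18 h and overlapped at 72 h.

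The third question, the study's own, was the effect of the starting concentration at each time. More GTPases passed as higher at the high concentration at 48 h than at the other times: 1 of 9 at 18 h, 4 at 30 h, 8 at 48 h and 2 at 72 h, and none was lower at any of the 4 times. Of all genes, 1.15%, 4.63%, 13.9% and 13% were higher at these times. The median log2 difference of the members was 0.44 at 18 h (0.20 without Iigp1, which has no fold there), 0.93 at 30 h, 1.48 at 48 h and 0.86 at 72 h, against medians between -0.03 and 0.04 over all genes.

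**Figure D2:**
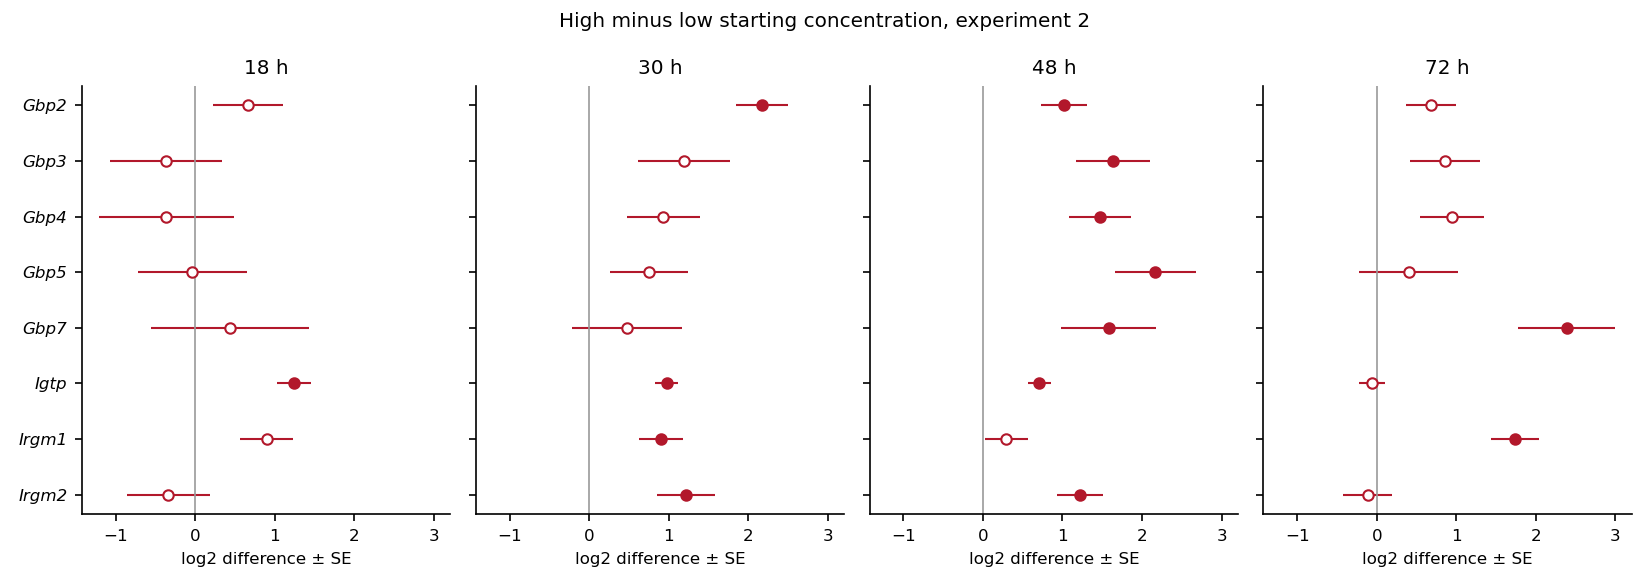
Log2 difference, high minus low starting concentration, with its SE (x axis) for 8 GTPases (rows) at 4 times (panels); filled points passed an adjusted p of 0.05, and Iigp1 is left out because it had 0 counts at the low concentration at 18 h. Most points lie right of 0 at 48 h, where all shown but Irgm1 are filled, and at 72 h Gbp7 and Irgm1 are filled.

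Igtp was the only member that passed at 18 h. It also had the most counts of the members in experiment 2 (11385, against at most 1757 for another member). Irgm1, Gbp2 and Gbp7 had positive differences at 18 h without passing (0.90 ± 0.34, 0.66 ± 0.44 and 0.44 ± 0.99), and 4 of the 9 differences were negative. An order in time between the members was not tested. At 18 h Igtp had 50.3, 55.2 and 47.6 CPM at the high and 23.4, 20.6 and 19.6 CPM at the low concentration (log2 1.24 ± 0.21, adjusted p = 0.000103), with no overlap. At 30 h it had 146, 155 and 167 CPM against 75.1, 88.9 and 74.9 CPM (0.97 ± 0.15, adjusted p = 5.13e-06), and at 48 h 247, 312 and 295 CPM against 155, 182 and 186 CPM (0.71 ± 0.14, adjusted p = 9.28e-05). At 72 h, with 179, 237 and 197 CPM against 214 and 212 CPM, the groups overlapped and the difference was -0.06 ± 0.16 (adjusted p = 0.823). The Igtp calls at 18, 30 and 48 h kept their side of the threshold without any 1 library.

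At 30 h Gbp2 had the largest of the passing differences. Its libraries held 31.7, 25.1 and 33.6 CPM at the high and 4.2, 7.73 and 7.53 CPM at the low concentration, a log2 difference of 2.18 ± 0.32 (adjusted p = 4.1e-06), and every high library stood above every low one. Irgm1 and Irgm2 also passed (0.91 ± 0.28 and 1.22 ± 0.37, adjusted p = 0.0311 and 0.0277), but these calls were weak: leaving out 1 library ended that of Irgm1 in 4 and that of Irgm2 in 5 of 6 cases, with adjusted p up to 0.12 and 0.149.

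At 48 h every measured guanylate-binding protein was higher at the high concentration. Gbp5 had 18.5, 23.1 and 13.2 CPM at the high and 2.61, 6.9 and 2.81 CPM at the low concentration (log2 2.16 ± 0.51, adjusted p = 0.00105), and at this time its groups did not overlap. Gbp3 (1.64 ± 0.47), Gbp4 (1.48 ± 0.39) and Irgm2 (1.22 ± 0.29) passed with adjusted p between 0.000996 and 0.0066. Irgm2 had 23.5, 23.1 and 23.7 CPM against 9.38, 11.5 and 9.24 CPM, so both groups were tight and apart. Irgm1, with 16, 20 and 30 CPM against 20.9, 17.8 and 16.9 CPM, overlapped and did not pass (0.30 ± 0.27, adjusted p = 0.462).

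The count at 48 h rests on few libraries. Without high library 3 it was 4: Gbp2 (adjusted p = 0.143), Gbp4 (0.0945), Gbp7 (0.298) and Iigp1 (0.0763) lost their calls, and leaving out other libraries also ended the calls of Gbp7 and Iigp1. The second title number is 2 for all high libraries and for 1 low library at 48 h; within that number, where the spread of the single low library is borrowed from the other groups, 2 members passed, Gbp5 (2.70, adjusted p = 0.029) and Igtp (0.83, adjusted p = 0.00585), and the other 6 had differences between 1.26 (Irgm2) and 3.27 (Iigp1) with adjusted p from 0.0544 to 0.181.

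At 72 h Irgm1 and Gbp7 passed, of which Irgm1 had also passed at 30 h and Gbp7 at 48 h; the times were not compared by a test. Irgm1 had 66.5, 41.3 and 68.4 CPM at the high and 15.6 and 19.5 CPM at the low concentration (log2 1.74 ± 0.30, adjusted p = 1.37e-05), and Gbp7 had 20.3, 7.74 and 20.3 CPM against 1.25 and 4.72 CPM (2.39 ± 0.61, adjusted p = 0.00241). Both stood apart between the groups, and the count was 5 in a fit of the compared groups only. Gbp7 lost its call without low library 1 (1.74, adjusted p = 0.0971). At this time all high libraries carry second title number 1 and all low ones number 2, so that number and the concentration cannot be told apart.

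The wider pathway also moved with concentration. Irf1 was higher at the high concentration at 30 h (56.7 against 19.3 CPM, log2 1.58 ± 0.23, adjusted p = 2.73e-06) and at 48 h (77.1 against 21.9 CPM, 1.81 ± 0.22, adjusted p = 9.1e-09), and its difference of 0.31 ± 0.24 did not pass at 72 h (adjusted p = 0.354). Irf8 was lower at the high concentration at 18 h (29 against 132 CPM, -2.18 ± 0.23), 30 h (31.7 against 197 CPM, -2.61 ± 0.21) and 48 h (48.7 against 233 CPM, -2.25 ± 0.20), with adjusted p = 2.53e-09 at 18 h and lower at 30 and 48 h. Of 14 type I interferon genes, 1, 3, 8 and 10 were higher at 18, 30, 48 and 72 h (medians 0.28, 0.98, 1.65 and 2.05), and of 15 interferon gamma genes 0, 6, 9 and 6 (medians 0.15, 0.42, 0.70 and 0.53). In the opposite direction, 0, 0, 1 and 0 type I genes and 0, 0, 1 and 0 interferon gamma genes passed. Among receptor subunits, Ifngr1 and Ifngr2 were higher at 48 h (0.68 ± 0.23 and 0.59 ± 0.21, adjusted p = 0.0223 and 0.029) and Ifngr2 at 72 h (1.46 ± 0.24, adjusted p = 5.99e-06). Of 11 autophagy partners that work with these GTPases, 3 were higher and 1 lower at 48 h, with a median of 0.05.

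Against naive cells, the calls at 72 h were few at the high concentration and all of them lower at the low one. At the high concentration 1 of 9 GTPases was higher (23.5% of all genes) and 2 were lower (20.0%), with a median of -0.28. Neither is a share well above that of all genes. At the low concentration none was higher and 5 were lower (24.1%), with a median of -0.97. Both comparisons use the same naive libraries. Irgm1 had 66.5, 41.3 and 68.4 CPM at the high concentration (log2 -0.65 ± 0.23, adjusted p = 0.0187) and 15.6 and 19.5 CPM at the low one (-2.38 ± 0.29, adjusted p = 1.65e-09), against 103, 85.8 and 88.2 CPM in naive cells. Both groups lay below all naive libraries. Gbp7 differed by -0.28 ± 0.42 at the high concentration (adjusted p = 0.627) and by -2.67 ± 0.59 at the low one (adjusted p = 0.000172).

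Igtp had 179, 237 and 197 CPM at the high and 214 and 212 CPM at the low concentration, against 218, 211 and 259 CPM in naive cells, so that 2 of 3 high libraries lay below all naive ones. Its differences of -0.17 ± 0.14 and -0.11 ± 0.16 did not pass (adjusted p = 0.358 and 0.59). Gbp3 was higher at the high concentration, with 23.5, 25 and 17.6 CPM against 4.63, 4.35 and 18.1 CPM in naive cells (1.22 ± 0.41, adjusted p = 0.0125), but the groups overlapped. None of the 3 calls at the high concentration held throughout: Gbp3 lost it without naive library 1 or 2 (adjusted p = 0.0785 and 0.0938), Irgm1 without high library 2 or naive library 1 (0.147 and 0.0583) and Irgm2 without each of 5 of 6 libraries (up to 0.168) and under 6 of 7 other settings (up to 0.152). At the low concentration Gbp4 and Iigp1 lost their calls without low library 2 (adjusted p = 0.0704 and 0.277) or naive library 3 (0.249 and 0.145), and Gbp4 also without low library 1 (0.237). With the second title number as a factor 2 of the 5 calls were kept, those of Gbp7 and Irgm1. The number sets the low libraries apart from the naive ones, so its effect was estimated from other groups.

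The fourth question was whether cells that kept CD62L, a homing receptor of naive and central memory T cells, differed from those that lost it. In experiment 1 the GTPases were higher in the CD62L positive cells: 5 of 10 at 48 h (4.05% of all genes) and 8 of 10 at 72 h (10.1%), with none lower and medians of 0.63 and 0.84 (0.01 and 0.00 over all genes). All 10 differences were positive at both times. Gbp7 had 367, 326 and 328 CPM in CD62L positive and 118, 113 and 129 CPM in CD62L negative cells at 48 h, a log2 difference of 1.50 ± 0.14 (adjusted p = 1.73e-09). At 72 h it had 549, 500 and 500 CPM against 304, 275 and 255 CPM (0.89 ± 0.13, adjusted p = 6.04e-06). The sorted groups stood well apart at both times.

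**Figure D3:**
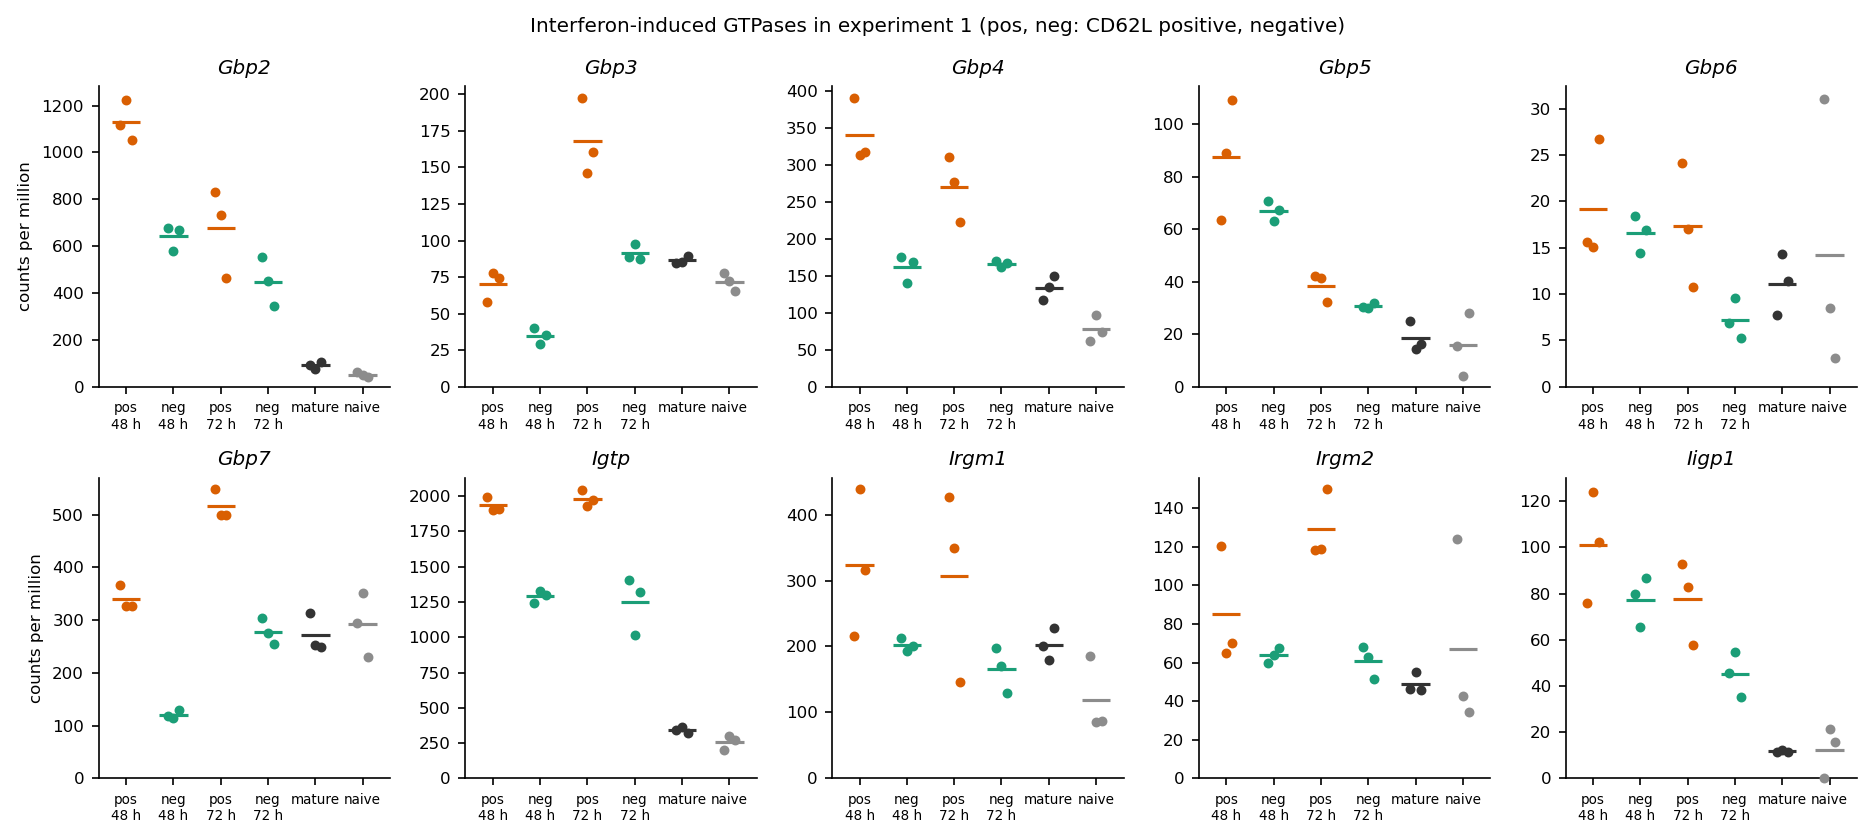
CPM (y axis, starting at 0) of 10 GTPases in the 3 libraries of each group of experiment 1, with bars at group means; pos and neg are CD62L positive and CD62L negative sorted cells. Gbp7 at 48 h lies at 326 to 367 CPM in CD62L positive and 113 to 129 CPM in CD62L negative cells, and Igtp is at 1013 CPM or more in all activated libraries.

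Igtp had 1994, 1899 and 1909 CPM in CD62L positive and 1244, 1331 and 1299 CPM in CD62L negative cells at 48 h (log2 0.58 ± 0.12, adjusted p = 0.0015), and 2040, 1927 and 1971 CPM against 1409, 1013 and 1319 CPM at 72 h (0.67 ± 0.12, adjusted p = 0.000125). Gbp3 was higher in CD62L positive cells at both times (1.01 ± 0.19 at 48 h and 0.88 ± 0.16 at 72 h, adjusted p = 0.00041 and 8.13e-05), as was Gbp4 (1.08 ± 0.14 and 0.71 ± 0.14, adjusted p = 9.46e-07 and 0.000373). Irgm2 had 121, 65.2 and 70.2 CPM against 59.6, 64 and 67.5 CPM at 48 h and did not pass (adjusted p = 0.258), but had 118, 119 and 150 CPM against 68, 63 and 51.3 CPM at 72 h (1.05 ± 0.20, adjusted p = 0.000245). Gbp6 passed at 72 h, with 24.2, 17 and 10.7 CPM against 6.85, 9.58 and 5.3 CPM (1.28 ± 0.38, adjusted p = 0.0159), within its uncertain counting. Gbp5 passed at neither time (0.38 ± 0.20 and 0.36 ± 0.25, adjusted p = 0.294 and 0.335), nor did Irgm1 (0.68 ± 0.31 and 0.92 ± 0.31, adjusted p = 0.254 and 0.0571).

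At 72 h the marker sums also separated the sorted groups: myeloid markers summed to 49.6 to 66.9 CPM in CD62L positive and 12.4 to 32 CPM in CD62L negative libraries, B-cell markers to 15.9 to 23.6 and 10.3 to 15 CPM, and CD8 and NK markers to 68.6 to 77.6 and 52.2 to 57.1 CPM. Of these lists 8 of 10, 6 of 8 and 6 of 8 markers had counts in CD62L positive cells, with Pax5 at 0, and their part in the result was not tested. At 48 h the B-cell sums also stood apart, at 14.5 to 17.8 CPM in CD62L positive and 6.09 to 10.9 CPM in CD62L negative libraries. The myeloid sums and the CD8 and NK sums overlapped at that time, and the part of these cells was not tested there either. All 5 calls at 48 h held without any 1 library. At 72 h the count was 5 without CD62L positive library 1, as Gbp2 (adjusted p = 0.155), Iigp1 (0.0851) and Gbp6 (0.179) lost their calls, and those of Gbp2 and Gbp6 were also lost without other libraries, up to adjusted p = 0.0876 without CD62L negative library 3 for Gbp2.

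Receptors and transducers were followed beside them. Of 5 measured ligand and receptor genes, 3 were higher in CD62L positive cells at each time, among them Ifnar1 (114 against 57.7 CPM at 48 h, log2 0.98 ± 0.16, adjusted p = 5.43e-05, and 262 against 131 CPM at 72 h, 1.00 ± 0.14, adjusted p = 2.33e-06). Ifng, the gene of interferon gamma, was lower in CD62L positive cells at 48 h, with 10.8 against 30.4 CPM (-1.48 ± 0.32, adjusted p = 0.00249), and at 72 h had 2.27 against 4.66 CPM without passing (adjusted p = 0.26). Irf1 was higher at both times (0.51 ± 0.14 and 0.88 ± 0.14, adjusted p = 0.0165 and 1.67e-05). Of 16 type I interferon genes 5 and 9 were higher at 48 and 72 h and none was lower (medians 0.78 and 0.74), and of 10 other interferon-inducible GTPases 4 and 5 were higher and none was lower (medians 0.34 and 0.76).

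In experiment 2 the same comparison gave 3 of 9 GTPases higher in CD62L positive cells at 48 h (7.23% of all genes), none lower and a median of 0.87. Igtp had 423, 402 and 414 CPM in CD62L positive and 227, 233 and 196 CPM in CD62L negative cells (log2 0.92 ± 0.14, adjusted p = 2.34e-06), with no overlap. Iigp1 had 11.5, 9.24 and 6.44 CPM against 2.23, 1.15 and 3.53 CPM (2.05 ± 0.58, adjusted p = 0.0119) and Gbp3 8.63, 9.95 and 14.8 CPM against 3.34, 3.74 and 5.55 CPM (1.40 ± 0.45, adjusted p = 0.0283). The Igtp call held without any 1 library. Gbp3 lost its call in 4 and Iigp1 in 2 of 6 such cases, both of them without CD62L negative library 2 (adjusted p = 0.115 and 0.105), and against the 1 CD62L negative library that shares the second title number of the CD62L positive ones only Igtp passed (0.86, adjusted p = 0.00532), while Gbp3 and Iigp1 differed by 1.71 and 1.99 (adjusted p = 0.18 and 0.216). The spread of that single library is borrowed from the other groups.

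At 72 h in experiment 2 no GTPase passed in either direction, against 1.53% of all genes, and 8 of 9 differences were positive with a median of 0.32. By edgeR's quasi-likelihood test 1 of the 9 had an unadjusted p under 0.05, and DESeq2 called 0. The smallest adjusted p was 0.27, for Iigp1, which had 18 counts in CD62L positive and 3 in CD62L negative cells, a ratio of 4.78 (exact 95% interval 1.39 to 25.3, counting error only). Igtp had 125, 127 and 129 CPM against 145, 147 and 101 CPM (log2 -0.04 ± 0.15). Whether the difference between the sorted groups changed between the times or the experiments was not tested.

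**Figure D4:**
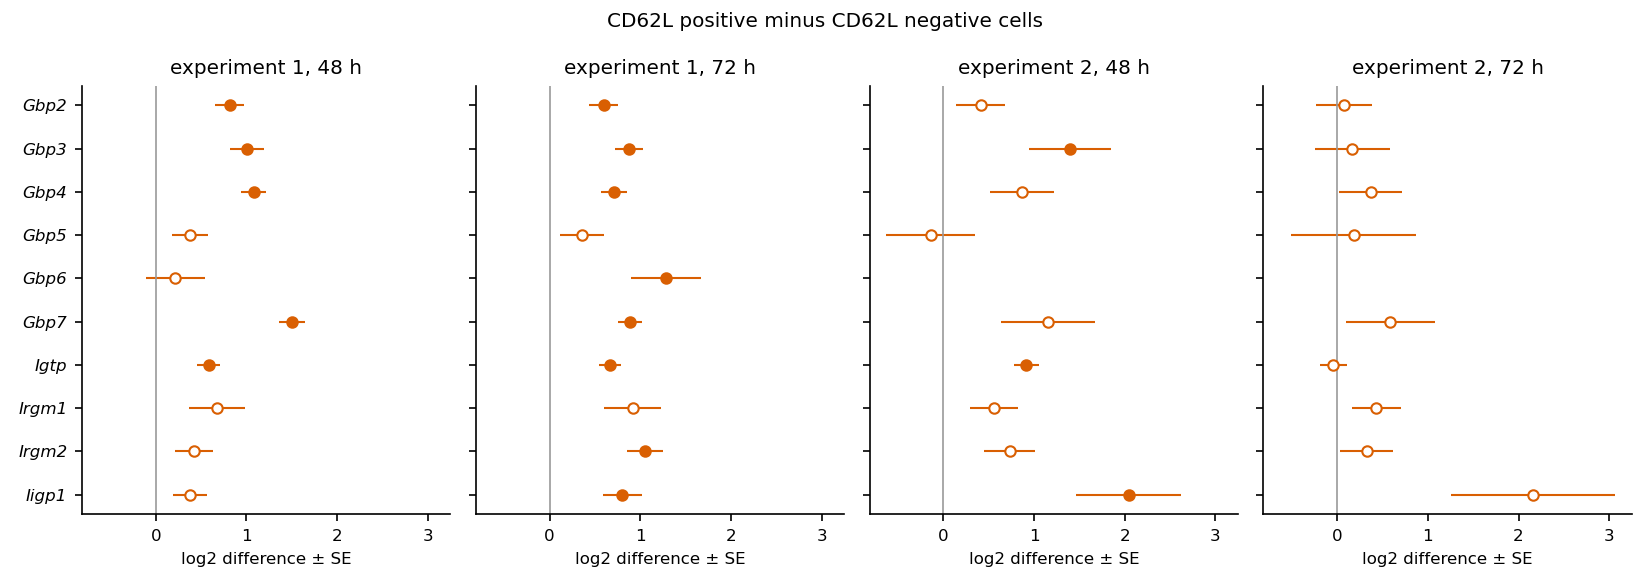
Log2 difference, CD62L positive minus CD62L negative cells, with its SE (x axis) for each GTPase (rows) in both experiments and at both times (panels); filled points passed an adjusted p of 0.05, and Gbp6 is absent in experiment 2, where it had 0 counts. All points lie right of 0 in experiment 1, Gbp7 at 48 h highest at 1.50, and no point is filled in experiment 2 at 72 h.

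The activated cells of experiment 1 were also set against unactivated ones. In CD62L positive cells at 72 h, 9 of 10 GTPases were higher than in naive cells (19% of all genes) and none was lower, with a median of 1.54 (0.07 over all genes). Gbp2 had 832, 731 and 463 CPM in CD62L positive cells at 72 h, against 62.1, 50.9 and 40.4 CPM in naive cells, a log2 difference of 3.85 ± 0.28 (adjusted p = 1.34e-12). Igtp had 2040, 1927 and 1971 CPM against 202, 297 and 270 CPM (2.87 ± 0.16, adjusted p = 6.03e-17), and Iigp1 92.9, 82.8 and 57.9 CPM against 0, 21.2 and 15.5 CPM (2.31 ± 0.41, adjusted p = 3.09e-05). For these genes the groups were far apart. In CD62L negative cells at 72 h against mature cells, 3 of 10 were higher, a share near that of all genes (24.3%), and none was lower, with a median of 0.32. They were Gbp2 (449 and 91.4 CPM, 2.29 ± 0.20), Igtp (1247 and 343 CPM, 1.86 ± 0.13) and Iigp1 (45.3 and 11.7 CPM, 1.95 ± 0.33), with adjusted p between 4.27e-14 and 7.76e-06. The naive and mature libraries are the ones with the B-cell, myeloid, CD8 and NK, and red cell and platelet marker levels given above, and their part in these differences was not tested. The naive call of Gbp5 was lost without each of 4 of 6 libraries (adjusted p up to 0.365) and that of Irgm1 without naive library 2 or 3 (0.0729 and 0.0785).

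Other interferon-induced genes were followed in the same comparisons. In CD62L negative cells at 72 h against mature cells, 15 of 16 type I interferon genes were lower, against 24.4% of all genes, and none was higher (median -1.47), Rtp4, Ddx58 and Ifit3 with the smallest adjusted p, and 4 of 10 other interferon-inducible GTPases were higher and 3 lower (median 0.82). In CD62L positive cells at 72 h against naive cells, 2 of 16 type I genes were higher and 5 lower, against 18.2% of all genes that were lower (median -0.57), and 6 of 10 other GTPases were higher and 1 lower (median 2.02), among them Gm12250 (134 against 33.3 CPM, log2 2.19 ± 0.30, adjusted p = 4.37e-07). Socs1, which inhibits JAK signalling, was higher in both comparisons (1.99 ± 0.19 and 2.25 ± 0.15, adjusted p = 1.43e-10 and 4.54e-15), and Ifng was lower in both (2.27 against 69.1 CPM and 4.66 against 132 CPM, adjusted p = 8.8e-10 and 2e-15). The same enriched naive and mature libraries, with more counts of CD8 and NK and other cell markers, enter here. The part of those other cells in the levels of Ifng and the other genes was not tested.

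In experiment 2 the comparison of CD62L positive cells at 72 h with naive cells went the other way. It was added after the values had been seen. No GTPase was higher and 5 of 9 were lower (23.3% of all genes), with a median of -0.73. Gbp2 had 13.7, 27.6 and 26.5 CPM in CD62L positive cells and 47.8, 52.9 and 89.8 CPM in naive cells (log2 -1.50 ± 0.27, adjusted p = 8.86e-06), and Igtp 125, 127 and 129 CPM against 218, 211 and 259 CPM (-0.85 ± 0.14, adjusted p = 2.69e-06). In both genes all CD62L positive libraries lay below all naive ones, while in experiment 1 they lay above them. Irgm1 (-1.47 ± 0.24), Irgm2 (-0.70 ± 0.27) and Iigp1 (-1.42 ± 0.55) were also lower; Irgm2 and Iigp1 lost their calls in 4 and 3 of 6 cases with 1 library left out, and the count was 3 without CD62L positive library 3. The experiments differ in the magnetic enrichment, which the labels give for naive cells of experiment 1 only, in the CD44 gate on activated cells and in the share of ribosomal protein counts, and these cannot be told apart.

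**Figure D5:**
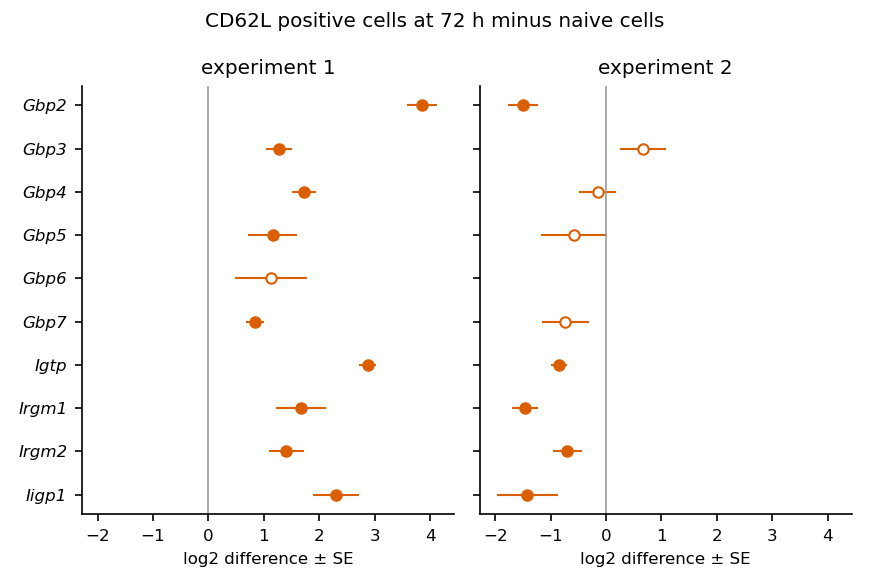
Log2 difference, CD62L positive cells at 72 h minus naive cells, with its SE (x axis) for each GTPase (rows) in experiments 1 and 2 (panels); filled points passed an adjusted p of 0.05. All 10 points lie right of 0 in experiment 1, Gbp2 at 3.85, and 8 of 9 left of 0 in experiment 2, Gbp2 at -1.50.

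Between mature and naive cells of experiment 1 few of these genes passed. Of the 10 differences, 8 were positive, and the naive libraries held only 68, 243 and 273 counts of the members. Few calls at this depth do not show that the groups are alike. Gbp4 was higher, with 117, 135 and 150 CPM in mature and 62.1, 97.6 and 74.6 CPM in naive cells (log2 0.71 ± 0.23, adjusted p = 0.0321), as 1 of 10 against 7.82% of all genes, and none was lower (median 0.33, 0.04 over all genes). Its call was lost without mature library 3 (adjusted p = 0.1) or naive library 3 (0.194). Gbp2 stood apart between the groups (92.3, 77.5 and 104 CPM against 62.1, 50.9 and 40.4 CPM) and missed the threshold (0.97 ± 0.34, adjusted p = 0.0516). Naive library 1 had 58750 counts, the fewest of all, and held the highest naive values of Irgm1, Irgm2 and Gbp6 (186, 124 and 31 CPM). The B-cell and myeloid sums differ between these groups, and their part was not tested.

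Across the 13 groups of experiment 2 the members varied together to different degrees. Correlating each member's group means, on the scale log2(CPM + 1), with the mean of the other 8 gave Pearson's r = 0.931 for Irgm2, 0.919 for Gbp4 and 0.905 for Gbp2, 0.728 to 0.874 for Iigp1, Gbp7, Igtp, Irgm1 and Gbp3, and 0.293 for Gbp5. These are descriptions over 13 group means that share libraries and carry no test. Gbp5 and Irgm2, at the ends of this order, both hold GAS and ISRE matches in the windows printed above. A relation between the matches and this order was not tested. The genes whose group means were most like the mean of the 9 members were Abcb9, a peptide transporter of the lysosome (r = 0.990), Parp14 (0.961) and Zbp1 (0.953), both known interferon-induced genes, Psmb9, a subunit of the immunoproteasome (0.959), and Cand2 (0.952).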

How the data were processed

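RNA of sorted or enriched cells was copied from its 3' end with primers that carry molecular identifiers, per the labels' protocols. The authors deposited 2 tables of counts per gene symbol, 1 for each experiment, with 19791 and 24421 symbols. The submitters' processing notes name HTSeq 0.9.1 and both STAR 2.5.2b and HISAT 0.1.5, with bcl2fastq 2.17.1.14 and FastQC 0.11.7, and give mm9 as the build. Which aligner made the counts, how identifiers were collapsed, and the annotation and strand setting used: not given in the sources used here.

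Each table was analysed alone in R 4.3.3. Genes kept by edgeR's filterByExpr with a minimum count of 10 (8961 and 9239) were scaled by TMM, and all groups of a table entered 1 fit of edgeR 4.0.16's quasi-likelihood test (12 and 25 residual degrees of freedom). Adjusted p-values are Benjamini-Hochberg values over all genes tested, with a threshold of 0.05, and the SE is the size of the log2 difference divided by the square root of F. CPM use the TMM library sizes. Intervals for low counts are exact at 95%, the floor is 3 counts, and both cover counting error only. The alternatives were RLE scaling, no low-count filter, ribosomal protein genes left out, the replicate number or the second title number as a factor, the compared groups alone, DESeq2 1.42.0, and leaving out each library in turn. Library pairs of a group differed by 1.32 to 16.5 times the counting noise (chi-square per degree of freedom, 55 pairs), and none was treated as a duplicate. All same-numbered pairs correlated above 0.1 only in CD62L positive against negative cells of experiment 1 at 72 h (3 of 3 pairs, lowest r = 0.29), where libraries 1 and 2 of differing number reached 0.346 and 0.32, and the fit with the replicate block gave 8 calls there, as without it.

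The members and the gene lists were chosen with earlier results of these data known. Beside the members, the text names at most 3 genes of a list with the smallest adjusted p in a comparison, any gene of the lists of interferon ligands and receptors, signal transduction and feedback inhibitors, and the 5 genes whose group means are most like those of the members.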

Additional observations from a re-analysis of the deposited data

Results flagged for a closer look

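The change of Igtp between 18 and 72 h differed between the starting concentrations by -1.301 on the log2 scale (high minus low), by a direct test of that difference (adjusted p = 0.00026 by edgeR's quasi-likelihood test, and 6.58e-05 to 0.00153 over its alternatives). The lowest of these values is from the fit with the second title number as a factor. That number sets the low 72 h libraries alone apart here, so that fit cannot separate it from the change. Igtp was the only 1 of 9 members to pass, a share near the 9.22% of all genes that passed in this direction.

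In the comparison of CD62L positive cells at 72 h with naive cells, 4 GTPases had all libraries on 1 side in experiment 1 and on the other side in experiment 2. They were found by scanning several pairs of comparisons, and the share of all genes that lie so was not counted. Of all genes, 19% were called higher in experiment 1 and 23.3% lower in experiment 2, so whether 4 is many cannot be told. The log2 differences in experiments 1 and 2 were 3.855 and -1.501 for Gbp2, 2.875 and -0.851 for Igtp, 0.8427 and -0.7336 for Gbp7, and 2.307 and -1.422 for Iigp1. In experiment 2 Gbp7 did not pass (adjusted p = 0.153), and Iigp1 lost its call in 3 of 6 cases with 1 library left out. The difference between the experiments was not tested, since the tables were never joined.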

How the results depend on the processing

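None of the 80 member calls changed sign under any alternative run: without 1 library, 425 of 496 values kept their call and 71 lost it, and under the other settings 512 of 546 kept it and 34 lost it. The alternatives within a second title number, the comparison of CD62L positive cells at 72 h with naive cells in experiment 2, and the replicate block in a fit of the compared groups alone were chosen after seeing the data. The number of members called in mature against naive cells was 1, and 2 without the low-count filter, 2 with the replicate block, 3 in a fit of the compared groups only and 2 by DESeq2. For the high concentration at 72 h against naive cells it was 3, and 1 without the filter. For the low concentration it was 5, and 2 with the second title number as a factor and 3 by DESeq2. For high against low it was 8 at 48 h, and 2 with the low library of second title number 2 only, and 2 at 72 h, and 5 in a fit of the compared groups only. For CD62L positive against negative cells of experiment 2 at 48 h it was 3, and 1 with the negative library of second title number 1 only, and for CD62L positive cells at 72 h against naive cells there 5, and 3 in a fit of the compared groups only. The replicate block moved no other count by more than 1.5 times. Leaving out 1 library gave 0 to 2 calls for mature against naive, 5 to 9 for CD62L positive against negative at 72 h in experiment 1, 1 to 3 and 3 to 6 for the high and low concentrations at 72 h against naive, 2 to 4, 4 to 8 and 1 to 2 for high against low at 30, 48 and 72 h, 1 to 4 for CD62L positive against negative at 48 h in experiment 2, and 3 to 5 for CD62L positive at 72 h against naive there. The cause was not tested. Where 1 library of a pair was left out, the spread of the remaining one is borrowed from the other groups. The members with the fewest counts in experiment 2 were Iigp1 (226), Gbp7 (384), Gbp5 (476) and Gbp3 (504).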
